A study of Mus musculus with 20 samples.

Results

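Chemokines are small secreted proteins that steer migrating cells, and their receptors are G protein-coupled receptors on the cells that respond. The genes described here are those named as CXC or CC chemokines (Cxcl, Ccl), as their receptors (Cxcr, Ccr), or as the single CX3C ligand and receptor (Cx3cl1, Cx3cr1). Of 19937 genes measured with a probe set of their own, 49 met this rule, 33 ligands and 16 receptors. They comprised 13 Cxcl, 19 Ccl, 6 Cxcr and 9 Ccr genes and the 2 CX3C genes. Cxcl11, counted among the ligands, is annotated as a transcribed pseudogene in RefSeq. For 6 further names (Ccl21a, Ccl21b, Ccl21c, Ccl21d, Ccl27a and Ccl27b) the probe sets carried several symbols, and these were not tested.

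CXC ligands with a Glu-Leu-Arg motif, such as Cxcl1 and Cxcl2, attract neutrophils through Cxcr2. Cxcl9, Cxcl10 and Cxcl11 are induced by interferon and act on Cxcr3, while Cxcl12 acts on Cxcr4 and is bound and cleared by the atypical receptor Ackr3. CC ligands attract mainly monocytes and lymphocytes, and Cx3cl1 is made as a membrane-bound protein that can be shed. In the mammary gland the ducts have an inner luminal and an outer basal, contractile layer of epithelium, and both can secrete chemokines.

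Expression was measured on 20 arrays of mammary epithelial cells sorted from mice of mixed FVB/CD-1 background, 4 weeks after tamoxifen, which all animals received. Controls were K8-creERT2 mice, and mutants were K8-creERT2/PIK3CA H1047R mice, in which Cre driven by keratin 8 turns on mutant PIK3CA, the catalytic subunit of the kinase PI3K, with GFP marking cells that express it. Each array held amplified RNA of 2000 cells from pooled glands of 2 to 3 estrus-synchronized mice, from 3 independent sortings. All cells were gated as CD45-negative, which removes leukocytes.

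The 7 groups were control basal cells (CD24 low, Sca1-negative), control Sca1-negative and control Sca1-positive luminal cells (CD24 high), GFP-positive and GFP-negative basal cells of mutants, and GFP-positive luminal cells of mutants in both Sca1 gates. All control cells were GFP-negative. Each group had 3 arrays, except mutant Sca1-positive luminal cells, which had 2 (replicates 1 and 3). Mutant luminal cells were chosen as GFP-positive and control luminal cells as GFP-negative, so the mutation and the choice of cells in which Cre acted cannot be told apart there. Keratin 8 is a luminal keratin, and GFP-positive cells of the basal gate are cells in which this driver had been active. Against control or GFP-negative basal cells, the mutation and this choice of cells cannot be told apart either.

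Values are log2 levels. Array medians lay between 3.66 and 3.80, and arrays of the same group correlated across genes with r from 0.952 to 0.984. On 2 arrays, replicate 2 of GFP-positive basal cells and of the Sca1-positive luminal controls, values were less spread (SD over genes 1.58 to 1.59) than on the 18 others (1.65 to 1.77). The basal markers fitted the gates: the mean of 8 of them, including Krt5, Krt14 and Acta2, was 9.08 to 9.71 in basal arrays and 4.40 to 5.35 in luminal arrays. The luminal markers were less far apart: the mean of 5 of them was 10.54 to 10.78 in luminal arrays and 7.96 to 9.43 in basal arrays. Ptprc, which encodes CD45, had group means of 3.36 to 3.66. The mean of 21 immune cell genes (of 22 listed) was 3.39 to 3.59 in every array, with 1 or 2 of them above the 99th percentile of olfactory genes described next. By limma 0 of the 21 were called in any of the 10 comparisons, with 0 to 5 at an unadjusted p under 0.05.

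Levels were read against 1027 olfactory receptor genes, which are hardly used outside the olfactory epithelium. Their median was 2.94 to 3.05 in each group and their 95th percentile 3.54 to 3.64. Of the 49 genes, 31 exceeded that percentile in at least 1 group, 26 ligands and 5 receptors. At the 99th percentile, 3.94 to 4.11 by group, 20 did: 17 ligands and the receptors Cxcr4, Ccr7 and Ccr10. These are 63.3% and 40.8% of the 49, and over all genes the shares were 67.6% and 53.3%. A further 18 genes stayed at the level of the olfactory genes, between 2.67 and 3.93 on all arrays. They were the ligands Ccl1, Ccl3, Ccl8, Ccl12, Ccl22, Cxcl5 and Cxcl13 and the receptors Cxcr1, Cxcr2, Cxcr5, Cxcr6, Ccr1, Ccr2, Ccr3, Ccr4, Ccr6, Ccr8 and Ccr9.

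Most genes with signal were thus ligands, and the neutrophil receptors Cxcr1 and Cxcr2 were at background. The 11 genes between both limits had group means of 3.27 to 4.02: Ccl4, Ccl9, Ccl11, Ccl24, Ccl26, Ccl28, Cxcl3, Cxcl9, Cxcl11, Cxcr3 and Cx3cr1. In bulk samples, fewer cells of a type and less RNA per cell cannot be told apart.

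**Figure D1:**
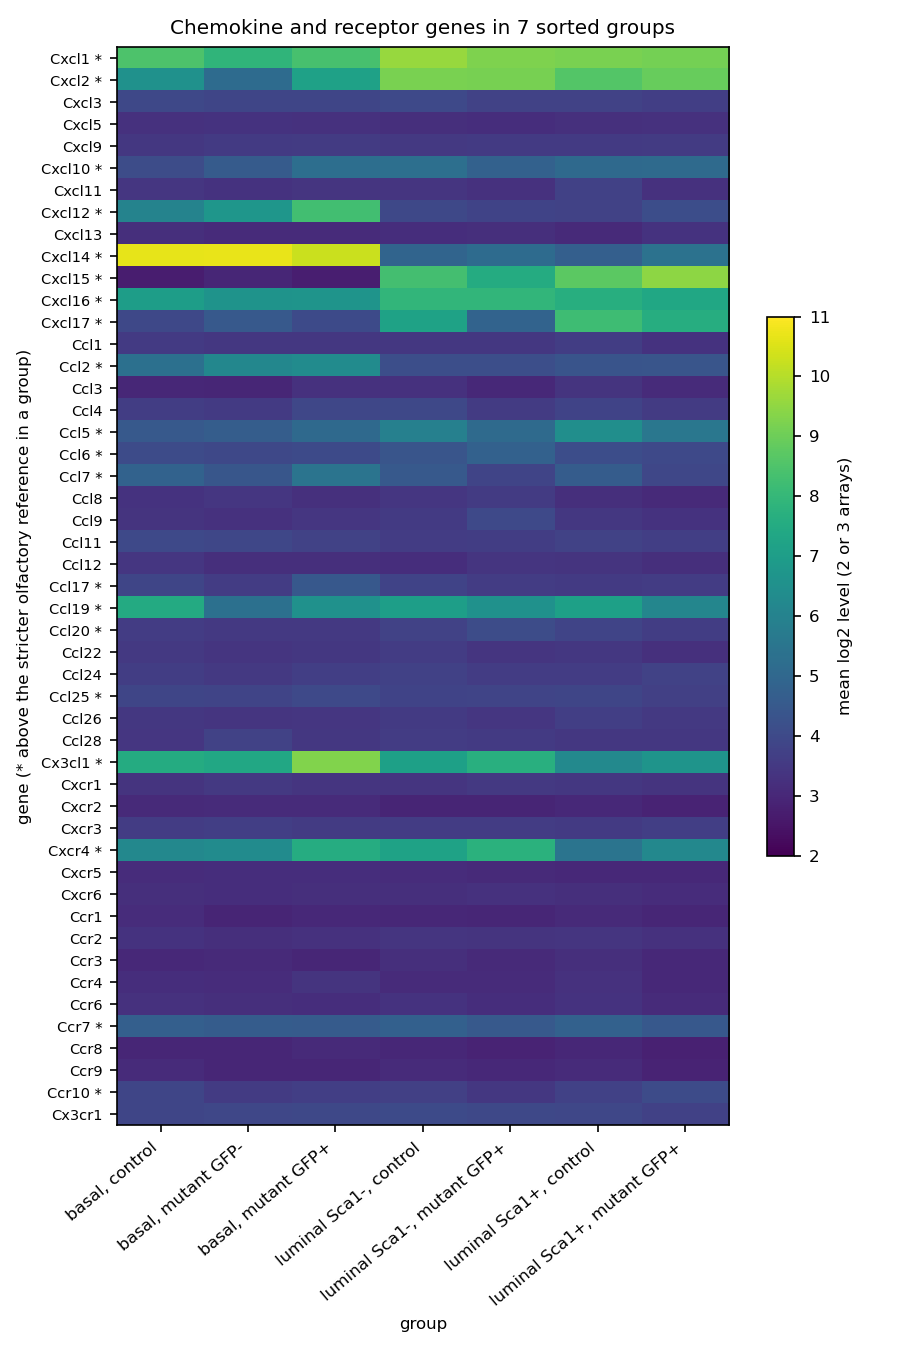
Mean log2 level (colour) of the 49 chemokine and receptor genes (rows, ligands above receptors) in the 7 sorted groups (columns, 2 or 3 arrays each); an asterisk marks the 20 genes above the 99th percentile of olfactory receptor genes in at least 1 group. Cxcl14 is bright in the basal columns, Cxcl15 and Cxcl17 are bright in luminal columns, and nearly all receptors except Cxcr4 stay dark.

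Differences were tested with limma over all 19937 genes, and called means an adjusted p (Benjamini-Hochberg) under 0.05. The moderated F test over the 7 groups called 12 of the 49 genes (24.5%), where 20.7% of all genes were called. They were Cxcl1, Cxcl2, Cxcl12, Cxcl14, Cxcl15, Cxcl16, Cxcl17, Cx3cl1, Ccl2, Ccl9, Ccl17 and Cxcr4. The share was near that of all genes. Rose and fell stand for called differences between groups, not for changes over time.

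In control mice, 7 of the 13 Cxcl genes were called between basal and Sca1-negative luminal cells, and 5 of 13 between basal and Sca1-positive luminal cells. Beside these stood 9.89% and 12.3% of all genes, and the Cxcl genes were not tested as a set. Against Sca1-negative luminal cells, 7 of 49 genes (14.3%) were called, beside 9.89% of all genes (4.67% higher, 5.22% lower): Cxcl14 and Cxcl12 were higher in basal cells, and Cxcl1, Cxcl2, Cxcl15, Cxcl16 and Cxcl17 lower. Against Sca1-positive luminal cells 7 of 49 (14.3%) were called, near the 12.3% of all genes (5.94% higher, 6.32% lower). Cxcl14, Cxcl12 and Cx3cl1 were higher in basal cells, and Cxcl15, Cxcl16, Cxcl17 and Ccl5 lower. Both comparisons use the same 3 basal arrays. Between the luminal gates 0 of 49 were called by limma, with 4 at an unadjusted p under 0.05, and 0.762% of all genes were called.

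The Glu-Leu-Arg ligands Cxcl3, Cxcl15, Cxcl1 and Cxcl2 lie next to each other in that order on mouse chromosome 5. The 250 bases before their starts are shown because Cxcl1 and Cxcl2 shared a lineage pattern with each other and differed from Cxcl3 in level. Sequences are RefSeq's (GRCm38.p6), 5′ to 3′ on the gene's strand, at chr5:90890995-90891244 for Cxcl1, chr5:90903649-90903898 for Cxcl2, chr5:90785851-90786100 for Cxcl3 and chr5:90794284-90794533 for Cxcl15, all on the plus strand. Capitals mark matches to a form of the site that NF-kB proteins bind, GGGA and TTCC with any 2 bases between them, searched on both strands.
Cxcl1: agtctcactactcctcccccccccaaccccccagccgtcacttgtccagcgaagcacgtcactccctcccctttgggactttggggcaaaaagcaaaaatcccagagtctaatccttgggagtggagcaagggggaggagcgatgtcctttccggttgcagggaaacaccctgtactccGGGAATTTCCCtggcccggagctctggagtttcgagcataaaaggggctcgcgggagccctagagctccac
Cxcl2: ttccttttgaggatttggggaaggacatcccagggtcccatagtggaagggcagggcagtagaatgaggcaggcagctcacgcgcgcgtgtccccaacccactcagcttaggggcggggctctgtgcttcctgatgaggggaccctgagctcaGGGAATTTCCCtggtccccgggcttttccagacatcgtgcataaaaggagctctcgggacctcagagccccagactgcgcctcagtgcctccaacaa
Cxcl3: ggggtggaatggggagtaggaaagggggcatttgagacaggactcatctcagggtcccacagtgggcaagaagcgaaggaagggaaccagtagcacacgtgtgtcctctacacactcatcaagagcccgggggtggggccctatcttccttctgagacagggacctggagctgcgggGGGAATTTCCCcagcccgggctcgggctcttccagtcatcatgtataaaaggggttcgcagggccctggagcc
Cxcl15: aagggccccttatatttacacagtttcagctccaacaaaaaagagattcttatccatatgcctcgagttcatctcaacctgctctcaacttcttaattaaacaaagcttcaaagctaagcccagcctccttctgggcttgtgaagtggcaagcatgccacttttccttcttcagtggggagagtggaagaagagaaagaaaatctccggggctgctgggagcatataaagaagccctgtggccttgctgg
The same letters, GGGAATTTCCC, stand in the Cxcl1, Cxcl3 and Cxcl2 windows, 71, 73 and 97 bases before the start, as 2 overlapping matches, 1 on each strand. The Cxcl15 window has no match. Of the 35 genes of the family with a promoter in the table, 6 had a match (Cxcl1, Cxcl2, Cxcl3, Cxcl10, Ccl1 and Ccr3), and 1.21% of the 32851 promoters of 27025 genes did. For TTCNNNGAA, the STAT-type site, 3 of 35 had a match (Ccl17, Ccr6 and Cxcl14) beside 7.02% of all promoters. For the interferon-response type, GAAA and GAAA with any 2 bases between them, 3 did (Ccl19, Cxcl10 and Cxcl14) beside 2.98%. A match describes letters only.

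Cxcl1, a neutrophil attractant, was well expressed in every group. Its arrays read 8.59, 8.34 and 8.51 in control basal cells, 9.68, 9.30 and 9.90 in control Sca1-negative luminal cells, and 8.61, 8.94 and 10.05 in control Sca1-positive luminal cells. In mutants they read 8.43, 7.53 and 7.72 in GFP-negative basal cells, 8.64, 8.13 and 8.41 in GFP-positive basal cells, 8.88, 9.09 and 9.80 in Sca1-negative luminal cells, and 8.90 and 9.35 in Sca1-positive luminal cells. Every Sca1-negative luminal array of either genotype lay above every basal array. The control basal minus Sca1-negative luminal difference was -1.15 ± 0.33 (SE; limma, adjusted p = 0.039), and the call was lost without control basal replicate 1, 2 or 3 or luminal replicate 1 or 3 (adjusted p from 0.0696 to 0.143). Against Sca1-positive luminal cells it was -0.72 (adjusted p = 0.211).

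Cxcl2, the close relative of Cxcl1, followed the same lineage order with more scatter. Its levels were 5.95, 7.46 and 6.25 in control basal cells, 8.27, 9.36 and 9.97 in control Sca1-negative luminal cells, and 7.35, 8.70 and 9.70 in control Sca1-positive luminal cells. Mutant arrays read 4.44, 4.15 and 6.90 (GFP-negative basal), 6.80, 6.80 and 7.81 (GFP-positive basal), 8.99, 8.66 and 9.82 (Sca1-negative luminal) and 8.88 and 8.92 (Sca1-positive luminal). Replicate 3 of GFP-negative basal cells stood above the 2 others of its group and within the range of control basal cells. Control basal cells were lower than Sca1-negative luminal cells by a log2 difference of -2.65 ± 0.71 (SE; limma, adjusted p = 0.0241). This call was lost without basal replicate 1 or 3 or luminal replicate 2 or 3 (adjusted p from 0.0758 to 0.111).

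Within the basal gate, Cxcl2 differences did not pass the test. GFP-positive minus GFP-negative was 1.97 (95% interval 0.47 to 3.48; limma, adjusted p = 0.189), and without GFP-negative replicate 3 it was 2.84 (adjusted p = 0.0253). GFP-negative mutant minus control was -1.39 (interval -2.90 to 0.11; adjusted p = 0.555), which does not show that these cells were alike.

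Cxcl15, known as lungkine and best described in the lung, separated luminal from basal cells without overlap. All 9 basal arrays lay between 2.59 and 3.35, within the range of the olfactory genes. Control luminal arrays read 6.87, 9.25 and 8.76 (Sca1-negative) and 7.51, 9.30 and 9.37 (Sca1-positive). Mutant luminal arrays read 7.58, 8.56 and 6.45 (Sca1-negative) and 9.69 and 9.25 (Sca1-positive), so that mutant and control ranges overlapped in both gates.

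The control basal minus luminal difference of Cxcl15 was -5.59 ± 0.59 (Sca1-negative; limma, adjusted p = 7.95e-06) and -6.02 ± 0.59 (SE; Sca1-positive; adjusted p = 2.56e-06). Mutant minus control was -0.76 in Sca1-negative cells (interval -2.02 to 0.49; adjusted p = 0.752) and 0.74 in Sca1-positive cells (interval -0.67 to 2.15; adjusted p = 0.766). The difference between these differences was 1.51 (interval -0.38 to 3.40; adjusted p = 0.999). The SD within luminal groups was 0.32 to 1.26, so that differences of this size were within the spread of the arrays.

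The other members of this subfamily carried little signal. Cxcl5 was among the genes at background, and Cxcl3 read 3.66 to 4.38 over the 20 arrays.

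Among interferon-induced ligands, Cxcl10 alone was above the stricter limit. It read 3.99, 4.03 and 4.22 in control basal cells and 5.73, 5.32 and 4.69 in GFP-positive basal cells of mutants, ranges that do not overlap. The difference of 1.17 (interval 0.22 to 2.11) was not called by limma (adjusted p = 0.19). GFP-negative basal cells read 4.75, 3.84 and 5.15 and spanned both. Cxcl10 was 4.37 to 5.89 in the 11 luminal arrays. Cxcl9 (3.29 to 3.79), Cxcl11 and their receptor Cxcr3 (3.38 to 3.92) stayed low. Cxcl11 reached 3.97 and 3.90 in replicates 2 and 3 of control Sca1-positive luminal cells and at most 3.53 in all other arrays. Without replicate 1 of that group, mutant minus control was -0.65 in Sca1-positive cells (limma, adjusted p = 0.013), and Sca1-positive minus Sca1-negative controls was 0.56 (adjusted p = 0.0103), both called only so.

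Cxcl14, an epithelial chemokine whose receptor is not settled, marked the basal gate. The 9 basal arrays read 10.05 to 10.80, and the 11 luminal arrays 4.33 to 5.55. Control basal minus luminal was 5.74 ± 0.24 (Sca1-negative; limma, adjusted p = 2.48e-10) and 5.93 ± 0.24 (SE; Sca1-positive; adjusted p = 1.37e-10). Genotype differences were small beside this. GFP-positive basal arrays read 10.05, 10.06 and 10.75 against 10.76, 10.45 and 10.75 in controls, a difference of -0.36 (interval -0.87 to 0.15; adjusted p = 0.516). In Sca1-positive luminal cells mutant minus control was 0.68 (interval 0.11 to 1.24; adjusted p = 0.465).

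Cxcl16, a ligand made as a transmembrane protein, was lower in basal than in luminal cells. It read 7.24, 6.86 and 6.92 in control basal, 8.18, 7.87 and 7.69 in control Sca1-negative luminal and 7.80, 7.85 and 7.25 in control Sca1-positive luminal cells. Mutant arrays read 6.42, 6.84 and 6.61 (GFP-negative basal), 6.87, 6.82 and 6.34 (GFP-positive basal), 7.81, 8.02 and 7.99 (Sca1-negative luminal) and 7.48 and 7.22 (Sca1-positive luminal). No Sca1-negative luminal array overlapped the basal arrays. Control basal minus luminal was -0.90 ± 0.19 (SE; limma, adjusted p = 0.00423) for Sca1-negative and -0.63 (adjusted p = 0.0378) for Sca1-positive cells. The second was lost without basal replicate 2 or 3 or luminal replicate 1 or 2 (adjusted p from 0.11 to 0.147) and after quantile normalization (0.143). Its receptor Cxcr6 was at background.

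Mutant and control cells were then compared in the same gate. In the Sca1-negative luminal gate 1 of 49 genes (2.04%) was called, beside 1.90% of all genes (0.682% lower), and an unadjusted p under 0.05 was seen for 4. In the Sca1-positive luminal gate limma called 0, with 5 at an unadjusted p under 0.05 and 0.226% of all genes called. GFP-positive basal cells against control basal cells gave 2 calls (4.08%), both higher, beside 4.23% of all genes (2.32% higher). GFP-negative mutant basal cells against the same controls gave 0, with 4 at an unadjusted p under 0.05 and 0.161% of all genes called. Within mutants, GFP-positive against GFP-negative basal cells gave 3 (6.12%), all higher, beside 3.25% of all genes (2.05% higher). The shares called were close to the background in Sca1-negative luminal cells and in GFP-positive against control basal cells, so the family did not stand apart there. In GFP-positive against GFP-negative basal cells the share was higher than the background (6.12% beside 3.25%) but rests on 3 genes. The calls concern single ligands.

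**Figure D2:**
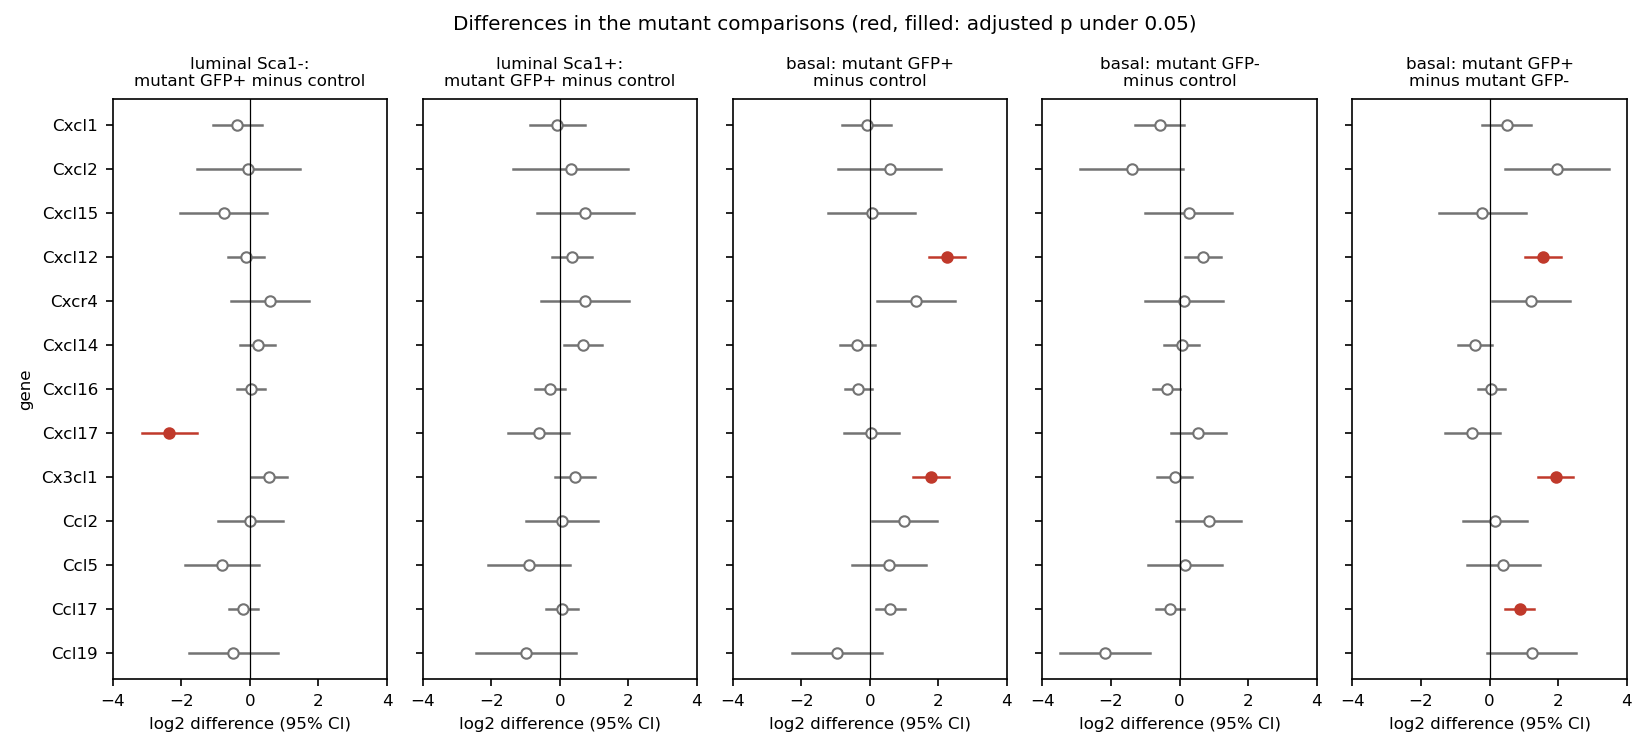
Log2 difference (points) and its 95% interval (bars) for 13 genes, from limma over 20 arrays, in the 5 mutant comparisons; red filled points have an adjusted p under 0.05. Red points are Cxcl17 in Sca1-negative luminal cells, Cxcl12 and Cx3cl1 in both GFP-positive basal comparisons, and Ccl17 in the last panel.

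Cxcl17, a chemokine of mucosal epithelia, was the gene called in Sca1-negative luminal cells. Control arrays read 7.69, 6.83 and 7.07 and mutant arrays 4.97, 4.98 and 4.59. The groups did not overlap, and mutant minus control was -2.35 ± 0.37 (SE; interval -3.14 to -1.55; limma, adjusted p = 0.0028), a 5.08-fold difference in the deposited values. In Sca1-positive cells controls read 8.67, 7.47 and 8.48 and mutants 6.73 and 8.45, with a difference of -0.62 (interval -1.51 to 0.27; adjusted p = 0.694). The difference between gates was 1.73 (interval 0.53 to 2.92) and was not called (adjusted p = 0.453), so the gates were not shown to differ.

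Basal arrays of Cxcl17 were low: 3.84, 4.05 and 4.01 in controls, 4.91, 4.55 and 4.08 in GFP-negative and 4.03, 3.98 and 4.04 in GFP-positive cells of mutants. Control basal minus luminal was -3.23 (adjusted p = 2.01e-05) for Sca1-negative and -4.24 (limma, adjusted p = 7.92e-07) for Sca1-positive cells. Mutant Sca1-negative luminal arrays thus lay nearer to the basal arrays than to the luminal controls.

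Markers of hormone-sensing luminal cells moved with Cxcl17 in the Sca1-negative gate. All 3 measured members of a list of 5 fell in mutants, with log2 differences of -2.65 for Pgr, -2.11 for Foxa1 and -1.32 for Esr1 (limma, adjusted p = 0.000147, 0.00643 and 0.0145). Of 4 luminal progenitor genes Elf5 rose by 2.23 (limma, adjusted p = 0.0113), while Kit, Aldh1a3 and Lcn2 were not called. Of 7 fibroblast genes only Dcn was called, and it fell by 2.83 (limma, adjusted p = 0.00253). Over all genes 1.9% were called (0.682% lower). Their part in the Cxcl17 result was not tested.

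**Figure D3:**
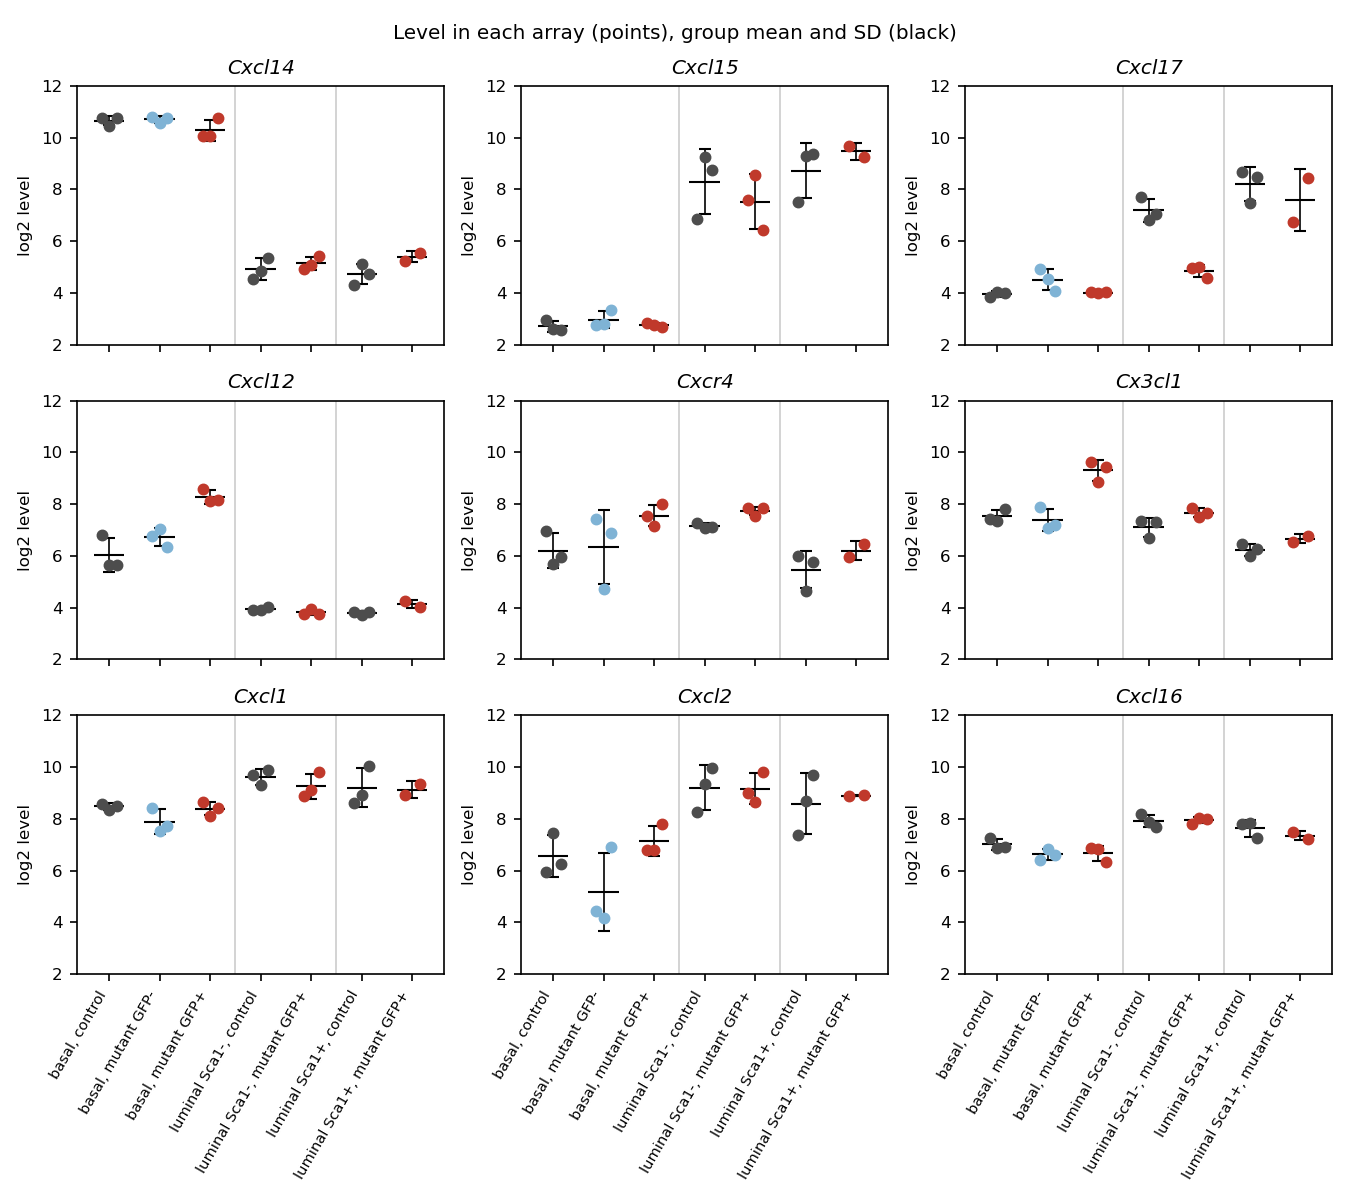
Log2 level on each array (points) of 9 genes in the 7 groups, with the group mean and SD in black; red points are GFP-positive mutant cells, blue points GFP-negative mutant basal cells and grey points controls. Cxcl12 and Cx3cl1 are highest in GFP-positive basal cells, and Cxcl17 is low in mutant Sca1-negative luminal cells.

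In the basal gate, Cxcl12 and Cx3cl1 rose in GFP-positive mutant cells. Cxcl12 guides cells that carry Cxcr4, and it is widely known as a product of stromal cells. Control basal arrays read 6.79, 5.65 and 5.63, GFP-negative basal arrays 6.78, 7.03 and 6.33, and GFP-positive basal arrays 8.58, 8.11 and 8.15. GFP-positive arrays lay above all 6 others, while GFP-negative and control arrays overlapped. GFP-positive minus control was 2.25 ± 0.25 (SE; interval 1.73 to 2.77; limma, adjusted p = 3.45e-05), a 4.77-fold difference in the deposited values. GFP-positive minus GFP-negative was 1.56 ± 0.25 (adjusted p = 0.00137), and with the spread taken from these 6 arrays alone its adjusted p was 0.0502.

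Control replicate 1 was the highest control for Cxcl12, and it bears on the GFP-negative comparison. GFP-negative minus control was 0.69 (interval 0.17 to 1.21; limma, adjusted p = 0.344), and without control replicate 1 it was 1.08 (adjusted p = 0.0288).

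In luminal cells Cxcl12 was near background. Control basal cells exceeded control luminal cells by 2.09 (Sca1-negative; limma, adjusted p = 2.31e-05) and 2.24 (Sca1-positive; adjusted p = 8.36e-06). The 11 luminal arrays read 3.71 to 4.24, between the 95th percentile of the olfactory genes and just above the 99th. Mutant minus control was -0.12 in Sca1-negative (interval -0.64 to 0.40) and 0.35 in Sca1-positive cells (interval -0.23 to 0.94). The basal difference exceeded that of the Sca1-negative luminal gate by 2.37 ± 0.35 (SE; limma interaction, adjusted p = 0.00148). That interaction called 2 of 49 genes, both higher, beside 1.55% of all genes (0.938% higher). The other was Cxcl17 (2.39, adjusted p = 0.0316), which was 0.05 in basal and -2.35 in luminal cells, and whose call was lost when any 1 of the 12 arrays was left out, except control Sca1-negative luminal replicate 2 (0.041; otherwise adjusted p from 0.0543 to 0.0887). Cxcl17 had a control basal mean of 3.97, below the 99th percentile of olfactory genes in that group (4.05). It thus had little room to fall in basal cells. Between the luminal gates the interaction called 0 of 49, with 4 at an unadjusted p under 0.05 and 0.14% of all genes called.

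Cx3cl1, also called fractalkine, read 7.41, 7.36 and 7.82 in control basal cells, 7.89, 7.09 and 7.18 in GFP-negative basal cells and 9.63, 8.85 and 9.45 in GFP-positive basal cells. GFP-positive arrays again lay above all others of the gate, and GFP-negative arrays overlapped the controls. GFP-positive minus control was 1.78 ± 0.24 (SE; interval 1.26 to 2.30; limma, adjusted p = 0.000341), a 3.44-fold difference in the deposited values. GFP-positive minus GFP-negative was 1.93 (adjusted p = 0.000192, or 0.0615 with the spread of these 6 arrays alone), and GFP-negative minus control was -0.14 (interval -0.66 to 0.38; adjusted p = 0.922).

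Cx3cl1 was also above the stricter limit in luminal cells. Sca1-negative arrays read 7.33, 6.69 and 7.31 in controls and 7.84, 7.51 and 7.67 in mutants, a difference of 0.56 without overlap (interval 0.04 to 1.08; limma, adjusted p = 0.381). Sca1-positive arrays read 6.46, 5.98 and 6.26 in controls and 6.55 and 6.78 in mutants (difference 0.43, adjusted p = 0.668). Among controls, basal exceeded Sca1-positive luminal cells by 1.30 (adjusted p = 0.00166). The basal mutant difference exceeded the Sca1-negative luminal one by 1.22 (interval 0.48 to 1.95), which was not called (limma, adjusted p = 0.115). It was called in 3 of 20 alternatives: without GFP-positive replicate 2 (1.45, adjusted p = 0.0487), with array weights (1.36, 0.0326) and with the replicate number as a block (1.22, 0.0198). The receptor Cx3cr1 stayed at 3.68 to 4.17 on all 20 arrays and was not called by the F test (adjusted p = 0.628).

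The promoters of Cxcl12 and Cx3cl1 are shown because these genes rose together in GFP-positive basal cells (RefSeq, GRCm38.p6, 250 bases before the start, chr6:117168285-117168534 and chr8:94771930-94772179, both on the plus strand, 5′ to 3′).
Cxcl12: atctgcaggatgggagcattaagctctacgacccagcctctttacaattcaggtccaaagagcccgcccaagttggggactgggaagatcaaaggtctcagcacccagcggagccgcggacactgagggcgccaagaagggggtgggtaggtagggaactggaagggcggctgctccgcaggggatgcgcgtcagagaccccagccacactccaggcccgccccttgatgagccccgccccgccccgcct
Cx3cl1: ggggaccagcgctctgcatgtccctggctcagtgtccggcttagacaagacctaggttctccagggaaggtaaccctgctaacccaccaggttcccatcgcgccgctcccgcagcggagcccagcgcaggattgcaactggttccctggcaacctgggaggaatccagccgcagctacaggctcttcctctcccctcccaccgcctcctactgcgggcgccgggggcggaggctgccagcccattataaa
Neither window holds a match to the NF-kB, STAT or interferon-response letters above, hence no capitals. Both are rich in G and C, 64.4% with 14 CG pairs in Cxcl12 and 64.8% with 14 in Cx3cl1. The median over all promoters was 52.4% and 6, and the 95th percentile 73.6% and 31. The Cxcl15 window had 46.4% and 2.

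Cxcr4, the signalling receptor of Cxcl12, was the receptor with clear signal. Its levels were 6.96, 5.70 and 5.94 in control basal cells, 7.42, 4.73 and 6.88 in GFP-negative basal cells and 7.53, 7.16 and 7.99 in GFP-positive basal cells. GFP-positive arrays lay above the control basal arrays, and GFP-negative arrays spanned both. Luminal arrays read 7.29, 7.08 and 7.13 (Sca1-negative control), 7.83, 7.56 and 7.84 (Sca1-negative mutant), 6.01, 4.64 and 5.75 (Sca1-positive control) and 5.94 and 6.47 (Sca1-positive mutant). Sca1-negative luminal arrays lay above all Sca1-positive ones.

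Pairwise, Cxcr4 differences did not pass the test, although the F test called the gene. GFP-positive basal minus control was 1.36 (interval 0.22 to 2.50; limma, adjusted p = 0.206), with adjusted p from 0.0858 to 0.43 over 14 alternative settings. Control Sca1-positive minus Sca1-negative luminal was -1.70 (interval -2.84 to -0.56; adjusted p = 0.247).

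Ackr3, the atypical receptor that takes up Cxcl12, is outside the symbol rule but bears on the same ligand. Its mean was 7.74 ± 0.21 (SD, n = 3) in control basal, 7.74 ± 0.45 in GFP-negative and 7.29 ± 0.14 in GFP-positive basal cells, and 3.73 to 3.88 in the 4 luminal groups. The lineage difference in controls was 3.86 and 4.01 for the Sca1-negative and Sca1-positive gates (limma, adjusted p = 3.49e-09 and 1.58e-09). GFP-positive minus control basal was -0.45 (interval -0.87 to -0.02; adjusted p = 0.284).

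Markers of other cells were read beside the basal result, since Cxcl12 is also a stromal product. In GFP-positive against control basal cells 4.23% of all genes were called (2.32% higher). Of 7 fibroblast genes, 2 rose in GFP-positive against control basal cells. Col1a2 had means of 5.16 and 4.28 (adjusted p = 0.0326), and Dcn had 10.58 and 7.43 (limma, adjusted p = 0.000477). Dcn was also high in control luminal cells (10.48 and 11.20). Pdgfra (3.41 and 3.53), Dpt (2.87 and 2.98) and Lum (2.87 and 3.04) were at the level of the olfactory genes in both basal groups. Col1a1 and Col3a1 differed by -0.005 and -0.06 (limma, adjusted p = 0.99 and 0.846). The mean of the fibroblast list was 4.65 to 4.87 in GFP-positive, 4.28 to 4.32 in GFP-negative and 4.14 to 4.27 in control basal arrays. In control luminal arrays it was 4.49 to 4.61 (Sca1-negative) and 4.61 to 4.73 (Sca1-positive).

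Other lists moved as well. Of 5 pericyte genes Cspg4 rose (4.18 against 3.46), of 8 endothelial genes Cdh5 fell, and of 21 immune genes 0 were called, with 5 at an unadjusted p under 0.05. The luminal markers Krt18 and Krt19, 2 of 5, rose by 1.01 and 1.48 (adjusted p = 0.0114 and 0.0388), and the basal markers Myh11 and Oxtr, 2 of 8, fell by 0.70 and 1.84 (limma, adjusted p = 0.0127 and 0.0039). Of 4 luminal progenitor genes Elf5 rose by 1.84 (limma, adjusted p = 0.0227), and that list lay at 6.16 to 7.01 in GFP-positive against 5.77 to 5.92 in control basal arrays. The luminal list lay at 8.50 to 9.43 in GFP-positive against 7.96 to 8.66 in control basal arrays. Cxcl12 was near background in luminal cells, and what part any of these markers had in the basal result was not tested.

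**Figure D4:**
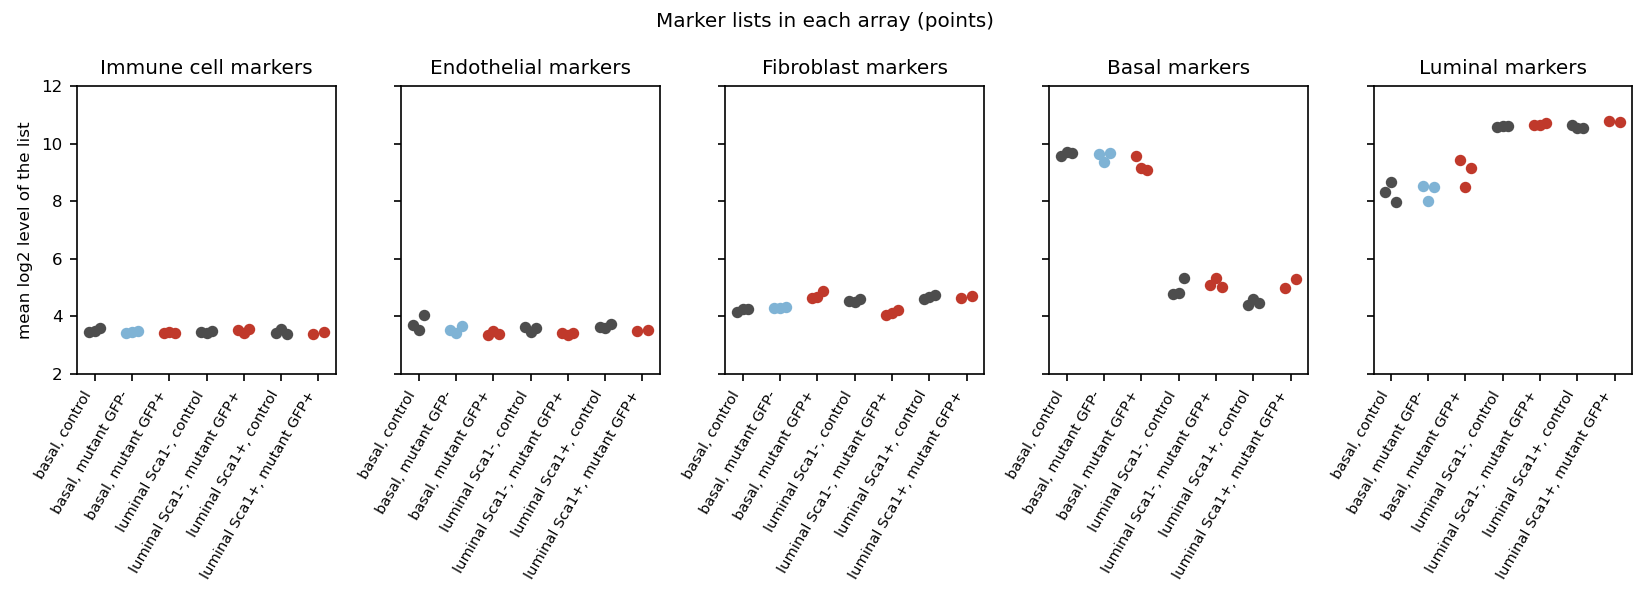
Mean log2 level of 5 marker lists on each array (points) in the 7 groups, coloured as controls (grey), GFP-negative mutant basal cells (blue) and GFP-positive mutant cells (red). The immune cell list is flat at 3.39 to 3.59, and the basal and luminal lists split the gates. The fibroblast list, of which only Dcn and Col1a2 were called, is 4.65 to 4.87 in GFP-positive against 4.14 to 4.27 in control basal arrays. In control luminal arrays the fibroblast list is 4.49 to 4.73.

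Among CC ligands 1 was called in a mutant comparison. Ccl17, a ligand of Ccr4, read 4.10, 4.99 and 4.36 in GFP-positive basal cells and 3.81, 3.62 and 3.37 in GFP-negative basal cells, without overlap. The difference was 0.88 ± 0.20 (SE; limma, adjusted p = 0.0211), and the call was lost without GFP-negative replicate 3 or GFP-positive replicate 2 (adjusted p = 0.0817 and 0.074) and with the spread of these 6 arrays alone (0.27). Control basal arrays read 3.75, 3.85 and 4.04, and GFP-positive minus control was 0.60 (interval 0.18 to 1.02; adjusted p = 0.113). Without GFP-positive replicate 1 it was 0.79 (adjusted p = 0.043). The 11 luminal arrays read 3.32 to 3.94, and Ccr4 was at background.

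Ccl2, a monocyte attractant, was higher in the basal gate as a whole. It read 4.95, 5.63 and 5.40 in control, 5.11, 6.76 and 6.63 in GFP-negative and 5.52, 7.33 and 6.14 in GFP-positive basal cells, and 3.80 to 4.90 in luminal arrays. All 9 basal arrays lay above the luminal ones, and the F test called the gene (adjusted p = 0.00248), while no pairwise difference was called. GFP-positive minus control was 1.01 (interval 0.06 to 1.95; limma, adjusted p = 0.272). Its receptor Ccr2 was at background.

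Ccl5, a T cell attractant, was highest in control luminal cells: 5.79, 6.85 and 5.11 in Sca1-negative and 7.03, 7.04 and 5.32 in Sca1-positive cells, against 4.56, 4.43 and 4.56 in control basal cells. Basal minus Sca1-positive luminal was -1.95 ± 0.50 (SE; limma, adjusted p = 0.0172), a call lost without basal replicate 2 or luminal replicate 1 or 2 (adjusted p from 0.052 to 0.0813). Mutant luminal arrays read 4.94, 5.19 and 5.19 (Sca1-negative) and 6.17 and 4.97 (Sca1-positive), with differences of -0.81 and -0.89 from controls that were not called (adjusted p = 0.64 and 0.668). GFP-negative basal arrays read 4.68, 4.60 and 4.73, and GFP-positive ones 6.10, 4.53 and 4.61, so that replicate 1 stood alone.

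Ccl7 and Ccl9 also showed isolated high values. Ccl7 read 6.32 in replicate 3 of control Sca1-negative and 6.40 in replicate 2 of control Sca1-positive luminal cells, against 3.46 to 4.16 in the 9 other luminal arrays. Its basal arrays read 4.02 to 5.62. Ccl9 read 4.32, 3.85 and 3.74 in mutant Sca1-negative luminal cells and 3.13 to 3.83 elsewhere (F test, adjusted p = 0.0476; mutant minus control 0.43, adjusted p = 0.256). Ccl6 read 4.34, 4.53 and 5.48 in those mutant cells against 4.30, 4.19 and 4.61 in controls (limma, adjusted p = 0.524).

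Ccl19, a ligand of Ccr7, had 4 probe sets that disagreed. The one with the highest mean read 7.08, 7.29 and 8.14 in control basal cells and 4.32, 5.82 and 5.86 in GFP-negative mutant basal cells, a difference of -2.17 (limma, adjusted p = 0.217). In another probe set GFP-negative cells were the higher ones, with group means of 4.93 in controls and 6.09 in mutants, and one more had the same order. Near-identical copies of Ccl19 are known in the mouse genome and probe sets may not tell them apart, so no direction is given. Ccr7 read 4.41 to 5.15 over the 20 arrays without a called difference. Ccl20, Ccl25 and Ccr10 had highest group means of 4.08, 3.98 and 4.04 and were not called by the F test.

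The genes that carry chemokine signals or induce chemokines were read from 5 lists. In GFP-positive against control basal cells, of 15 NF-kB pathway genes 0 rose and 2 fell: Bcl3, a nuclear cofactor of NF-kB (4.91 against 6.93, adjusted p = 0.0239), and Icam1, a leukocyte adhesion molecule (6.50 against 7.88, limma, adjusted p = 0.0137). Of 18 upstream cytokines and receptors Il6st, the shared receptor chain of the interleukin-6 family, fell by 1.02 (adjusted p = 0.00179). Of 13 genes of receptor signalling Rgs16, which shortens G protein signals, fell by 0.94 (adjusted p = 0.041). Of 8 STAT and interferon factors and of 12 chemokines and chemokine-binding receptors outside the symbol rule limma called 0, with 2 in each list at an unadjusted p under 0.05. The median differences of the 5 lists ranged from -0.26 to 0.02, beside -0.03 over all genes. Of all genes, 4.23% were called in this comparison.

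Against GFP-negative basal cells, Bcl3 and Icam1 also fell, by 1.84 and 1.26 (adjusted p = 0.0485 and 0.0299), and Rgs16 fell by 1.12 (limma, adjusted p = 0.0187). Lif, a cytokine of the interleukin-6 family, rose by 2.30 (adjusted p = 0.0245). Of all genes, 3.25% were called against GFP-negative basal cells. The comparisons with control and with GFP-negative basal cells share the GFP-positive arrays. In both luminal mutant comparisons and in GFP-negative against control basal cells, limma called 0 of the 66 genes of the 5 lists, with 13, 5 and 9 at an unadjusted p under 0.05. For Il6st, GFP-negative minus control basal was -0.57 (interval -0.93 to -0.22, limma, adjusted p = 0.234). In Sca1-negative luminal cells its mutant minus control difference was -0.66 (limma, adjusted p = 0.0604). The fall of Il6st was thus not shown to be confined to GFP-positive basal cells. Over all genes the shares called were 1.9% (Sca1-negative luminal), 0.226% (Sca1-positive luminal) and 0.161% (basal).

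In control basal against Sca1-negative luminal cells, 17 of the 66 genes were called, beside 9.89% of all genes (4.67% higher, 5.22% lower). Ackr3, Ackr4 and Cmklr1 (3 of 12), Stat2, Irf1 and Socs3 (3 of 8) and Gnai1, Rgs2 and Rgs16 (3 of 13) were higher in basal cells. Of 15 NF-kB pathway genes 1 was higher in basal cells, Icam1 (2.22, adjusted p = 9.7e-05), and 2 were lower, Relb (-0.87, 0.03) and Ikbkg (-0.27, limma, adjusted p = 0.0311). Of 18 upstream cytokines and receptors 1 was higher, Il6st (0.94, adjusted p = 0.00135). In that list 4 were lower: Lif (-3.25), Tnf (-1.70), Il6ra (-1.27) and Il1rn (-0.44; limma, adjusted p = 0.000566, 0.002, 0.0055 and 0.0213). Against Sca1-positive luminal cells Lif, Tnf and Il6ra were lower in basal cells as well, by log2 differences of -2.32, -1.15 and -1.87 (limma, adjusted p = 0.00708, 0.0268 and 0.00016). Il1rn was not called there (-0.10, adjusted p = 0.697). In that list Il6st and Tnfrsf1a were higher in basal cells (0.74 and 0.96, limma, adjusted p = 0.00697 and 0.039). Other lists held calls too, such as Ackr3, Icam1 and Irf1 (higher) and Tnfaip3 (lower). Of all genes, 12.3% were called against Sca1-positive luminal cells.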

How the data were processed

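The deposited values are log2 levels per probe set on Affymetrix mouse gene arrays, 1 column per array, and the unit was read from the values (1.98 to 13.07). The submitters' processing notes name affy without a version or a role. Background correction, normalization and genome build are not given in the sources used here. Values were used as deposited. Of 34760 probe sets, 21640 carried 1 gene symbol (21553 matched RefSeq, GRCm38.p6), 1321 several and 11799 were not listed. Where a gene had several the one with the highest mean over the 20 arrays was used, leaving 19937 genes.

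limma 3.58.1 in R 4.3.3 was fitted with 7 group means over 20 arrays, with Benjamini-Hochberg adjustment over all genes in each of 10 contrasts. The fit was also run on simulated data with independent noise, which cannot show how shared pools or sortings affect the calls. The p-values measure the spread between sorted pools of mice, and their number bounds the precision. The family, the gene lists and the tests were chosen with earlier results of these data known. Named with values on every array, or with their range over basal or luminal arrays, were the genes called in any contrast, Cxcl15, and ligands or receptors of these that were detected. Alternatives were the spread of only the compared arrays, the replicate number as a block, array weights, a trended robust prior, quantile normalization, averaged probe sets, a filter on low values, each array left out, and both arrays of narrow spread left out, the last chosen after seeing the data.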

Additional observations from a re-analysis of the deposited data

Results flagged for a closer look

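The mutant effect on 2 genes differed between gates by the test of the difference itself. For Cxcl12, GFP-positive mutant minus control was 2.25 in basal and -0.12 in Sca1-negative luminal cells, and the difference of 2.37 passed limma's interaction test (adjusted p = 0.00148), with all 3 GFP-positive basal arrays above all 3 controls. For Cxcl17 the effects were 0.05 and -2.35, and the difference was 2.39 (limma, adjusted p = 0.0316), with all 3 mutant luminal arrays below all 3 controls. The control basal mean of Cxcl17 was 3.97, below the 99th percentile of olfactory genes in that group (4.05). A fall like the luminal one could not have been seen there, so the test cannot decide whether the effect is particular to luminal cells. The Cxcl12 call held in all 20 alternatives, while that of Cxcl17 was lost in 11 of 20, each leaving out 1 of the 12 arrays (adjusted p up to 0.0887).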

How the results depend on the processing

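Of 22 calls, 14 held under every alternative, 8 were lost in at least 1, and 0 turned direction. Among the 14 were Cxcl12 and Cx3cl1 in GFP-positive against control basal cells and Cxcl17 in Sca1-negative luminal cells. With the spread taken from the compared arrays alone, GFP-positive against GFP-negative basal cells gave 0 calls in place of 3. That setting also ended the calls of Ccl5 and Cxcl16 between control basal and Sca1-positive luminal cells. Array weights ended those of Ccl17 and Cxcl16, the trended prior that of Cxcl16, and quantile normalization those of Cxcl16 and of Cxcl1 (adjusted p = 0.0561). Leaving out both arrays of narrow spread ended those of Ccl17, Ccl5, Cxcl16 and Cxcl1. The cause was not tested. At the 99th percentile, 20 genes in place of 31 counted as detected. Leaving out 1 array gave 1 call in Sca1-negative and 0 to 1 in Sca1-positive luminal cells (mutant against control). It gave 2 to 3, 0 to 1 and 2 to 3 in the basal comparisons (GFP-positive or GFP-negative against control, GFP-positive against GFP-negative). Control basal cells gave 5 to 6 (Sca1-negative) and 5 to 7 (Sca1-positive), the control luminal gates 0 to 1, the interactions 0 (luminal gates) and 1 to 2 (basal), and the F test 10 to 12. The labels do not say whether a replicate number marks a shared sorting, and the numbers were not treated as pairs. Over 23 same-numbered pairs of arrays, deviations correlated from -0.05 to 0.13, and both pairs above 0.1 were of the control luminal gates. With the replicate number as a block, these gates gave 1 call (Cx3cl1, -0.88, adjusted p = 0.0298) in place of 0, and the basal interaction 3 in place of 2. Groups of 2 or 3 arrays limit what can be detected, and levels within the range of the olfactory genes have no usable order. The filter on low values kept 11833 genes and 25 of the 49.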

Other observations

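The probe set shared by Ccl21a, Ccl21b, Ccl21c and Ccl21d, ligands of Ccr7, carries several symbols and was not tested. It read 4.80, 6.21 and 8.73 in control basal cells, 3.90 to 7.01 in GFP-negative mutant basal cells (2 of 3 arrays near the upper value) and 3.79, 3.47 and 3.63 in GFP-positive mutant basal cells. All GFP-positive basal arrays thus lay below the GFP-negative and control basal arrays, which were themselves widely spread. The 11 luminal arrays read 3.25 to 3.96.

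A probe set shared by Ccl27a and Ccl27b read 6.81 to 7.53 in control basal arrays, 6.62 to 6.76 in GFP-negative and 6.40 to 6.75 in GFP-positive mutant basal arrays, and 4.67 to 6.39 in luminal arrays, while a second one read 2.56 to 4.64 over all arrays.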
